A study of Homo sapiens with 5 samples.

Results

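The mRNAs of the cytosolic ribosomal proteins were followed through RNA immunoprecipitation (RIP) libraries of PSF and through input RNA of LTAD prostate cancer cells. Members were the genes whose symbol is RPL or RPS followed by digits and at most one letter A or X, together with RPLP0, RPLP1, RPLP2 and RPSA. This gave 77 of the 25702 genes in the table, 46 of the large subunit and 31 of the small subunit. Pseudogenes and the RPS6K kinases were left out. The rule rests on symbols alone, but it was chosen with earlier results of these data known. Of the 77, 76 passed the filter on low counts and were tested.

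PSF is the nuclear RNA-binding protein encoded by SFPQ, and the series is about how a small molecule affects the binding of PSF to RNA. The 2 libraries of the first group were PSF-RIP from cells given the compound No.10-3 at 5 µM, replicates 1 and 2. There was 1 PSF-RIP library from cells given the DMSO vehicle. The 2 input libraries were 1 of each treatment, but the column names do not say which is which, so they served together as the input reference and are called input A and input B. All cells grew in phenol-red free medium with charcoal-treated serum, and no control immunoprecipitation is among the 5 samples. Whether replicates 1 and 2 are separate cultures is not in the labels, so p-values measure only the spread between these samples, which may be technical.

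Each cytosolic ribosome holds a large subunit, which joins amino acids, and a small subunit, which reads the mRNA. Their protein components are needed in equal amounts, and the mRNAs are among the most abundant and shortest of a growing cell. Most begin with a cytosine followed by a run of pyrimidines, the 5′ terminal oligopyrimidine (TOP) tract, through which mTOR signalling and LARP1 control their translation and stability. Many of their introns hold small nucleolar RNAs (snoRNAs), which guide the modification of ribosomal RNA.

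The start sites of a few members are shown because the tract is the feature most of them share. RefSeq promoter entries (GRCh38.p14) were at hand for 62 of the 77 members. Each run below reads 5′ to 3′ on the gene's strand, from 30 bases before the annotated start to 20 bases from it on, with a tract of at least 5 pyrimidines beginning with C at the start in capitals. Where several starts are listed, the one with the longest tract is shown. The first 5 are members with very low PSF-RIP over input, RPS6 and RPLP0 lie in the middle, and RPL21, RPL3 and RPL9 are at the top.
RPL39, chrX:119791611-119791660, minus strand: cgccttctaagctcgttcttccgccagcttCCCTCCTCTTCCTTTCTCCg
RPS13, chr11:17077648-17077697, minus strand: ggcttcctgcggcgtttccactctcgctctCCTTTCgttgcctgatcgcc
RPL26, chr17:8383174-8383223, minus strand: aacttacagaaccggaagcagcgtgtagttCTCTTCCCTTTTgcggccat
RPS12, chr6:132814539-132814588, plus strand: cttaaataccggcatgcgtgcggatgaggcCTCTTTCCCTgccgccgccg
RPS29, chr14:49598691-49598740, minus strand: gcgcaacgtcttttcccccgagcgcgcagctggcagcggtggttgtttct
RPS6, chr9:19380217-19380266, minus strand: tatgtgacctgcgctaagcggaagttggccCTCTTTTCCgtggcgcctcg
RPLP0, chr12:120201092-120201141, minus strand: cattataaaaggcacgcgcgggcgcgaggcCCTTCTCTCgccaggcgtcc
RPL21, chr13:27251528-27251577, plus strand: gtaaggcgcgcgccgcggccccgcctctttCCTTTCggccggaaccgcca
RPL3, chr22:39319604-39319653, minus strand: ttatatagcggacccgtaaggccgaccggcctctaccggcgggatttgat
RPL9, chr4:39458903-39458952, minus strand: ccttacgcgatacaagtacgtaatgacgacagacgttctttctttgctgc

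The tract (C followed by at least 4 letters that are C or T, on the gene's strand) was present at a listed start of 46 of the 62 members, or 74.2%. It was present in 6.09% of 15083 other nuclear protein-coding genes of the table and in 5.14% of all 27305 genes with a promoter entry. With a looser search, for C and at least 6 pyrimidines beginning within 10 bases of a listed start, 53 of the 62 members matched (85.5%), against 17.9% of the other nuclear protein-coding genes. Members with and without the tract were found at both ends of the change over input. RPL3, RPL9 and, among the lowest members, RPS29 had no tract of that length at the listed start. Neither did RPL32 and RPL27, whereas RPL21, RPL36A and RPS27, near the top, had one. RPL9, RPL21, RPL36A and RPS27 averaged under 25 counts in the inputs, so their place at the top was measured only coarsely.

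Gene counts per library were 1519362 and 3368252 in No.10-3 PSF-RIP (replicates 1 and 2), 2181770 in vehicle PSF-RIP, and 4010376 and 3083063 in inputs A and B. The kinds of RNA differed sharply: nuclear protein-coding genes took 73.6 to 82.1% of counts in PSF-RIP and 15.9 to 16.4% in the inputs, where the 5 most abundant genes, led by RN7SK and RN7SL1, took 51.7 to 55.0%. All 10 luminal prostate markers passed the filter for testing. Of 13 markers of basal, stromal, endothelial, immune and neuroendocrine cells, 4 passed it. Levels are given as normalised CPM, which are counts scaled to a common effective library size with edgeR's TMM factors. Over all 13 markers, passed or not, they summed to 35.2 to 50.1 in PSF-RIP and at most 17.4 in the inputs. KRT5, TP63, PTPRC, CD3E, DCN and CHGA were at 0 in every library, and COL1A1 was the highest at 24.4 to 39.1 in PSF-RIP and 5.33 to 9.66 in the inputs. Their part in the results below was not tested.

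Seen as a share, the members' place depended on what they were measured against. They took 2.51% and 1.71% of all counts in No.10-3 PSF-RIP and 2.53% in vehicle PSF-RIP, against 1.52% and 1.51% in the inputs. Of the counts of nuclear protein-coding genes, they took 3.41% and 2.08% in No.10-3 PSF-RIP and 3.32% in vehicle PSF-RIP, against 9.27% and 9.47% in the inputs. The members were thus above the inputs in every PSF-RIP library as a share of all RNA and below them in every PSF-RIP library as a share of mRNA. The mean share of mRNA was 2.94 ± 0.744% in PSF-RIP (SD, n = 3) and 9.37 ± 0.136% in the inputs (SD, n = 2), 3.19 times higher in the inputs. A two-sided exact permutation test gave p = 0.2, the smallest that 3 libraries against 2 can give. The Wilson interval at the 95% level was 3.37 to 3.44% for No.10-3 replicate 1 and similarly narrow for the others, and it covers counting error only.

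The first comparison asked which members were recovered with PSF more or less than the typical gene, all 3 PSF-RIP libraries against both inputs. Of the 76 members tested, 51 were lower in PSF-RIP and 0 were higher. Across all 13321 genes tested, 10.4% were lower and 10.0% were higher. The members' median log2 change was -1.70, beside 0.08 over all tested genes and 0.14 over nuclear protein-coding genes. The log2 change was negative for 72 of the 76. The calls are from edgeR's quasi-likelihood test with TMM scaling and Benjamini-Hochberg adjustment over all genes at 0.05.

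TMM scaling sets the typical gene near 0, so these changes are relative to it. With plain library totals the median of all genes moved to 2.42, that of the members moved to 0.65, and 34 members were called higher and 6 lower. Most of all genes tested were called higher on that scale, with counts given in the closing section. RPL39, RPS13, RPL26, RPS15A, RPS12 and RPS29 were the 6 that were lower on both scales. With totals over nuclear protein-coding genes alone, 50 members were lower and the median was -1.61. Leaving out either input, which leaves 1 library in that group, did not change the sign of the members' median.

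In 65 of the 76 members tested, all 3 PSF-RIP libraries lay below both inputs, where 25.1% of all genes did so. None lay above both inputs in all 3, where 30.1% of all genes did. The median over the members was -1.65 and -2.09 in the No.10-3 PSF-RIP libraries (replicates 1 and 2) and -1.78 in the vehicle PSF-RIP library, each relative to the mean of the inputs. The inputs differed from each other by a median of -0.05 (input A minus input B).

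**Figure D1:**
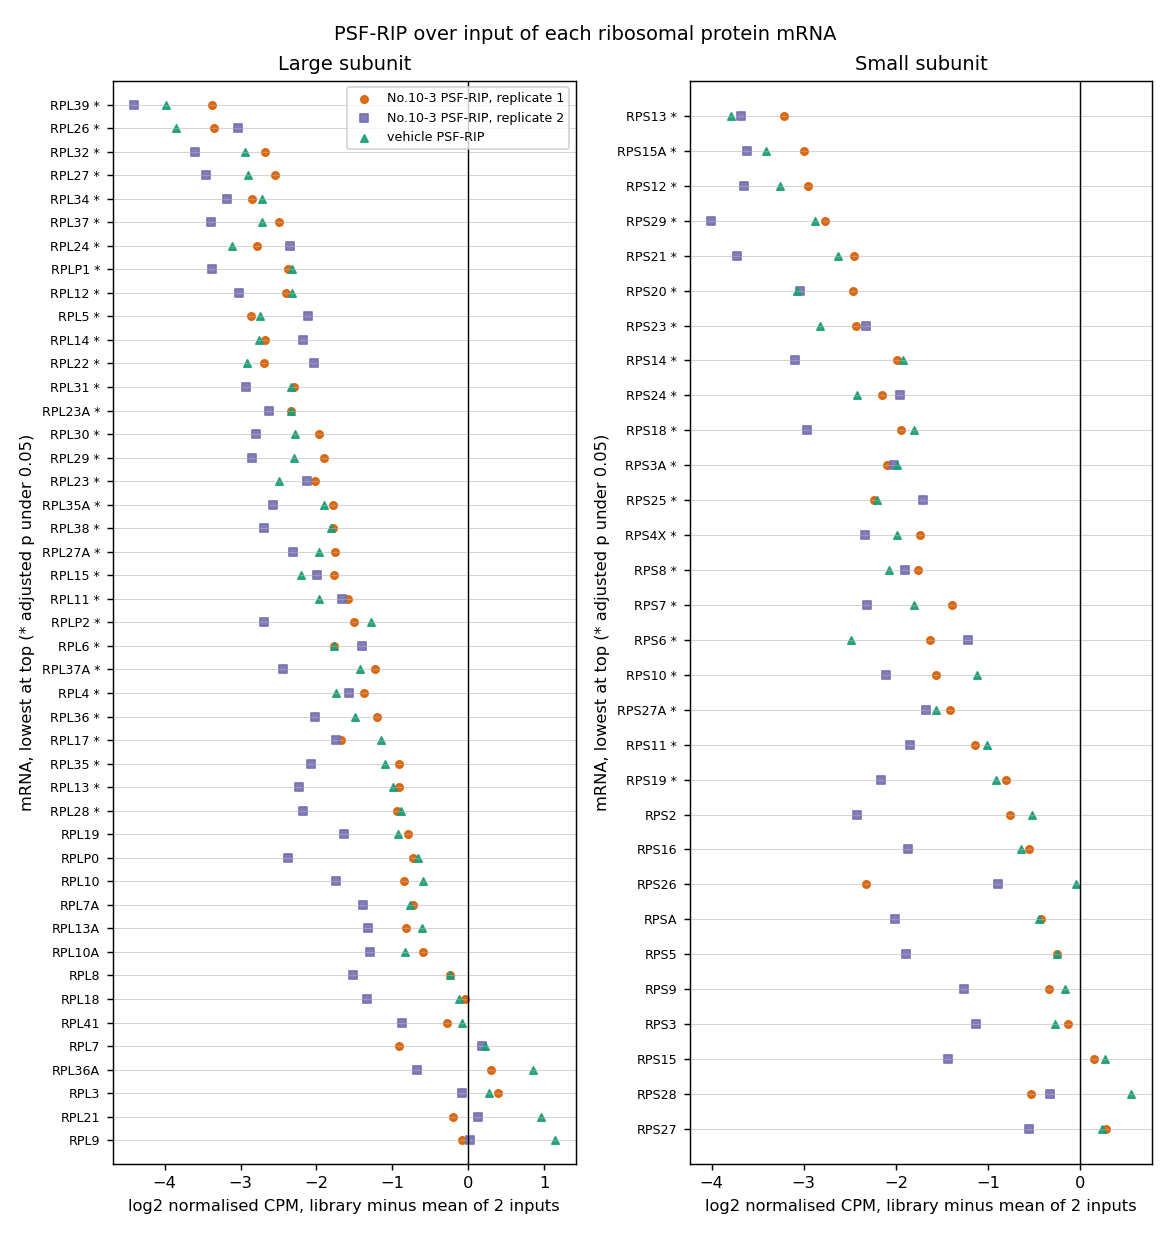
Each row is 1 ribosomal protein mRNA of those reported by name, with the large subunit on the left and the small subunit on the right; points are the log2 normalised CPM of each PSF-RIP library minus the mean of the 2 inputs, and a star marks an adjusted p under 0.05. RPL39 and RPS13 are the lowest of their panels, few rows reach 0, and No.10-3 replicate 2 (squares) is the leftmost point in many rows.

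RPL39, a small protein beside the tunnel through which the nascent chain leaves the ribosome, had the lowest PSF-RIP over input of all members. Its level was 22.2 and 10.5 normalised CPM in No.10-3 PSF-RIP and 14.3 in vehicle PSF-RIP, against 261 and 212 in the inputs. Every PSF-RIP library was far below both inputs, and the log2 change was -3.94 (SE 0.39, edgeR adjusted p = 2.24e-07), a 15.4-fold lower level.

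RPS13, a protein of the small subunit, was at 43.6 and 31.5 normalised CPM in No.10-3 PSF-RIP and 29.1 in vehicle PSF-RIP, against 407 and 414 in the inputs. The PSF-RIP values were close together and far below the inputs (log2 change -3.57, SE 0.38, edgeR adjusted p = 7.57e-07). RPL26, a large subunit protein, was at 98.7 and 123 in No.10-3 PSF-RIP and 69.4 in vehicle PSF-RIP, against 1009 and 1007 in the inputs. Its groups did not overlap either, with a log2 change of -3.38 (SE 0.41, edgeR adjusted p = 4.21e-06). RPS15A (-3.33), RPS12 (-3.27) and RPS29 (-3.14) followed, and the next lowest changes, of RPL32, RPL27, RPL34 and RPS21, were between -3.03 and -2.85.

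The stalk of the large subunit, built of RPLP0, RPLP1 and RPLP2, recruits the elongation factors, and 2 of its 3 mRNAs were lower in PSF-RIP. RPLP1 was at 132 and 65.5 normalised CPM in No.10-3 PSF-RIP and 137 in vehicle PSF-RIP, against 745 and 631 in the inputs (log2 change -2.63, SE 0.40, edgeR adjusted p = 1.01e-04). RPLP2 was at 224 and 98.0 in No.10-3 PSF-RIP and 263 in vehicle PSF-RIP, against 641 and 635 in the inputs (-1.71, SE 0.41, edgeR adjusted p = 0.00645). In both, every PSF-RIP library was below the inputs and replicate 2 of No.10-3 was the lowest. RPLP0 was at 539 and 171 in No.10-3 PSF-RIP and 562 in vehicle PSF-RIP, against 958 and 828 in the inputs. Its PSF-RIP libraries were also all below the inputs, but they were spread widely, and the log2 change of -1.08 (SE 0.45) missed the threshold at an edgeR adjusted p of 0.0851.

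RPL5 and RPL11 carry the 5S ribosomal RNA into the large subunit and bind MDM2 when ribosome assembly is disturbed. Both were lower in PSF-RIP. RPL5 was at 66.6 and 113 normalised CPM in No.10-3 PSF-RIP and 72.9 in vehicle PSF-RIP, against 495 and 485 in the inputs (log2 change -2.54, SE 0.38, edgeR adjusted p = 7.98e-05). RPL11 was at 143 and 135 in No.10-3 PSF-RIP and 110 in vehicle PSF-RIP, against 395 and 468 in the inputs (-1.74, SE 0.37, edgeR adjusted p = 0.00238). In each, the 3 PSF-RIP libraries lay together below the inputs.

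RPS6, the main ribosomal substrate of the S6 kinases, was at 308 and 412 normalised CPM in No.10-3 PSF-RIP and 170 in vehicle PSF-RIP, against 924 and 990 in the inputs. All 3 PSF-RIP libraries were below the inputs, and the vehicle library was the lowest (log2 change -1.69, SE 0.41, edgeR adjusted p = 0.00717). RPS27A, made as a fusion with ubiquitin, was also lower (-1.57, SE 0.35, edgeR adjusted p = 0.004). RPSA, known also as the laminin receptor, had a change of -0.81 (SE 0.41) that missed the threshold, with an edgeR adjusted p of 0.156. RPS19, the gene mutated most often in Diamond-Blackfan anemia, was lower with a change of -1.18 (SE 0.40, edgeR adjusted p = 0.0389). Of the 18 Diamond-Blackfan anemia genes tested, 14 were lower and 0 higher, with a median of -1.91. Over all 76 members tested, 51 were lower, with a median of -1.70, and 10.4% of all genes tested were lower. Whether these genes differ from the other members was not tested.

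By subunit, 31 of 46 large subunit members and 20 of 30 small subunit members were lower, with medians of -1.68 and -1.76. Members with the tract at a listed start included 33 of 46 that were lower (median -1.72), and members with a listed start but no tract included 9 of 16 (median -1.53).

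At the other end stood RPL3, which lies close to the peptidyl transferase centre. It was at 487 and 351 normalised CPM in No.10-3 PSF-RIP and 451 in vehicle PSF-RIP, against 364 and 380 in the inputs. Replicate 2 of No.10-3 was just below both inputs and the other PSF-RIP libraries were above them, so that the groups overlapped (log2 change 0.21, SE 0.39, edgeR adjusted p = 0.732). RPL3 was the only member with at least 100 counts on average in the inputs whose change was not negative, on the TMM scale.

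The remaining members near 0 had few reads. In all, 8 members, RPL9 and RPL21 among them, averaged under 25 counts in the inputs, and their median change was -0.05 with 0 of 8 called. RPL9 had 14 and 39 counts in No.10-3 PSF-RIP and 54 in vehicle PSF-RIP, against 13 and 4 in the inputs. RPL21 had 4 and 14 counts in No.10-3 PSF-RIP and 17 in vehicle PSF-RIP, against 5 and 1 in the inputs. At such depth a difference of the size seen in the other members was measured only coarsely, with SE values of 0.56 for RPL9 and 0.79 for RPL21. The 67 members with at least 100 counts on average in the inputs included all 51 calls and had a median of -1.98. These limits on depth were chosen after the values were seen.

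How reads that match several places were counted is not given in the sources used here, and ribosomal protein genes have many processed copies. RefSeq lists 4 to 137 named pseudogenes per member, with a median of 17, and 137 belong to RPL21. The table itself held 31 pseudogene entries of ribosomal protein genes, and a few of them had more reads than their parent gene. RPL13AP5 was at 614 and 296 normalised CPM in No.10-3 PSF-RIP and 773 in vehicle PSF-RIP, against 1427 and 1218 in the inputs. RPL13A itself was at 173 and 123 in No.10-3 PSF-RIP and 202 in vehicle PSF-RIP, against 332 and 285 in the inputs. RPL13AP5 was lower in PSF-RIP (log2 change -1.24, edgeR adjusted p = 0.0435), whereas RPL13A, at -0.89, was not called (edgeR adjusted p = 0.0842). RPSAP58 was likewise above RPSA in every library. Values of these parents and of the members with few reads are therefore uncertain. Pseudogene entries took 0.107 to 0.264% of all counts in PSF-RIP and 0.0838 to 0.100% in the inputs.

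The mRNAs differ from most genes in length, with a median of 730 bases for the members tested and 2891 for all genes tested. Change over input varied with length across genes: nuclear protein-coding genes other than the members had a median of -0.95 over 200 and up to 500 bases, -0.35 up to 1000 bases, 0.12 up to 2000 bases and 0.24 up to 4000 bases. The members' medians in the same classes were -1.88, -1.57, -1.65 and -2.35, with 9 of 12, 26 of 43, 11 of 15 and 3 of 4 lower. Of the other nuclear protein-coding genes in these classes, 29.0%, 17.7%, 11.6% and 8.39% were lower. The 2 members over 4000 bases were both lower, with a median of -1.61 beside 0.14 for the other genes. In every class the members' median was below that of the other genes. With a smooth trend on length removed within each library, 46 members were lower and 0 higher, with a median of -1.24, where 13.5% of all genes were lower. Among the 76 members, log2 length and log2 change had a Pearson's r of -0.04, a description across genes that share the same 5 libraries.

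**Figure D2:**
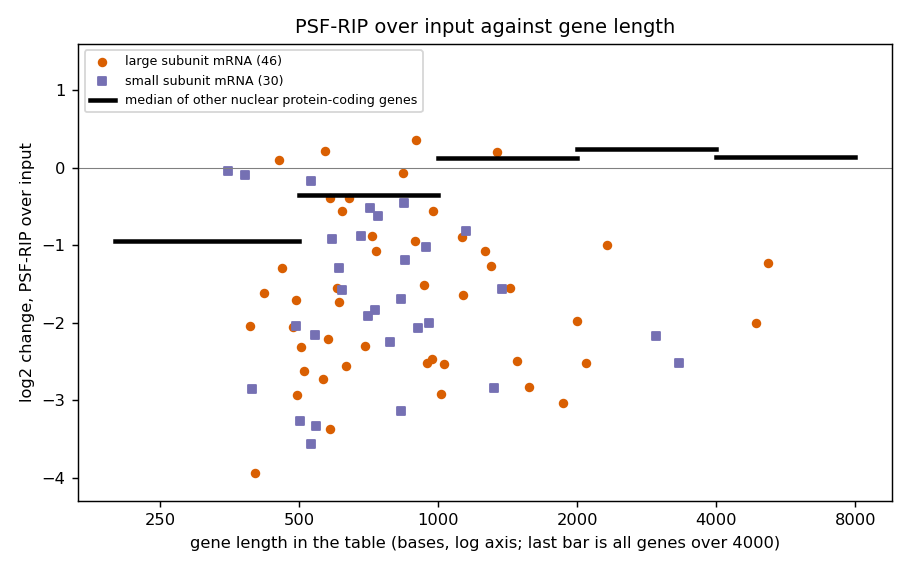
Points are ribosomal protein mRNAs by gene length (bases, log axis) and log2 change of PSF-RIP over input; black bars are the medians of the other nuclear protein-coding genes in each length class. The bars climb from -0.95 to 0.24 between the shortest class and the class of 2000 to 4000 bases, while most points lie below the bar of their class.

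Within the members, those most abundant per length in the inputs tended to be lower in PSF-RIP. Per kilobase, RPL37A stood at 1205 and 521 normalised CPM in No.10-3 PSF-RIP and 1056 in vehicle PSF-RIP, against 2790 and 2868 in the inputs, the highest mean of all members there. RPS21, RPL27, RPS12, RPS15A, RPL26, RPL23 and RPL38 came next in the inputs, with means per kilobase between 1650 and 2656. All 8 were lower in PSF-RIP, with log2 changes between -3.38 for RPL26 and -1.61 for RPL37A. The log2 input level per kilobase and the log2 change had a Pearson's r of -0.57 over 76 members. It was -0.26 over the 67 with at least 100 input counts. The inputs enter both measures, so these values are a description only.

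Introns of 29 members hold snoRNAs by their position inside the gene in GRCh38.p14, without regard to strand. Of these hosts 20 were lower in PSF-RIP (median -1.71), and of the other 47 members tested 31 were lower (median -1.69). Among the 48 snoRNAs inside members that were tested, 7 were lower and 0 higher, with a median log2 change of -0.70. Over all 200 snoRNAs tested, 39 were lower and 0 higher, with a median of -0.69. SNORA69, inside RPL39, was at 2.59 and 0.866 normalised CPM in No.10-3 PSF-RIP and 2.86 in vehicle PSF-RIP, against 35.4 and 43.6 in the inputs (log2 change -4.31). SNORA62 and SNORA6, inside RPSA, were lower at -2.59 and -1.79, where RPSA itself was not called. Only 13 of the 48 snoRNAs had a lower change than their host.

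Other mRNAs of the translation machinery were compared with the members. Of 31 further TOP and translation mRNAs, 12 were lower and 1 was higher, with a median of -0.74. TPT1, a TOP mRNA encoding a tumour protein, was at 239 and 238 normalised CPM in No.10-3 PSF-RIP and 187 in vehicle PSF-RIP, against 2632 and 3266 in the inputs (log2 change -3.74). The elongation factor EEF1A1 (-1.60) and the poly(A)-binding protein PABPC1 (-1.20) were also lower, EEF2 at 0.57 was not called, and the initiation factor EIF3B was higher at 1.36. Of 8 ribosomal protein genes outside the naming rule that were tested, 4 were lower, among them RPL22L1 (-2.95), a paralogue of RPL22.

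Of 78 mitochondrial ribosomal protein mRNAs, 13 were lower and 3 higher, with a median of -0.52. Of 74 nuclear respiratory chain mRNAs, 26 were lower and 3 higher, with a median of -0.62. The 28 ribosome biogenesis mRNAs, which encode the factors that assemble ribosomes, included 2 lower and 5 higher and had a median of 0.20. The difference between the members and these lists was described by counts and medians and not tested.

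**Figure D3:**
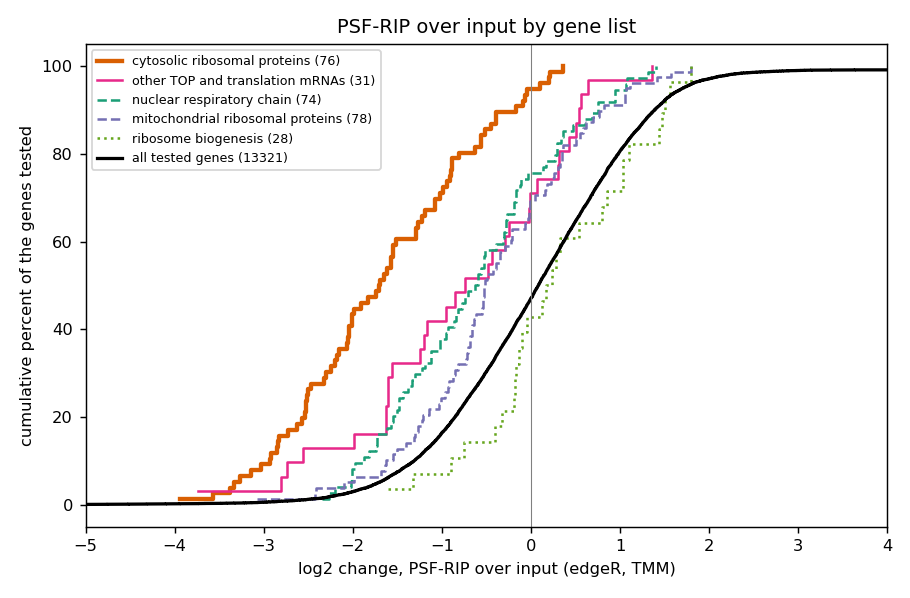
Curves give the cumulative percent of genes at or below each log2 change of PSF-RIP over input, for the ribosomal protein mRNAs, 4 other lists and all tested genes. The ribosomal protein curve lies furthest left over most of its course, with a median of -1.70 against 0.08 for all genes, and the ribosome biogenesis curve lies to the right of the all-gene curve over most of its range.

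Each PSF-RIP condition was also set against the inputs in a fit of all 3 groups. No.10-3 PSF-RIP had 52 members lower and 0 higher, with a median of -1.78, where 6.5% of all genes were lower and 4.98% higher. Vehicle PSF-RIP had 42 members lower and 0 higher, with a median of -1.80, where 10.4% of all genes were lower and 10.0% higher. The comparisons share the inputs, and the vehicle group is 1 library that was assumed to vary like the others. RPL39, the lowest in both, had log2 changes of -3.89 with No.10-3 and -4.05 with vehicle, and RPS6 had -1.41 with No.10-3 and -2.50 with vehicle. Because the inputs were used as 1 reference, a change of a member's level in the cells and a change of its recovery cannot be told apart, and in bulk samples neither can fewer cells of a type and less RNA per cell.

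The second comparison asked whether No.10-3 altered the members' level among PSF-bound RNA. None of the 76 members passed the test between No.10-3 and vehicle PSF-RIP, and none of the 13766 genes tested did (0.0% called; edgeR quasi-likelihood). The smallest adjusted p among the members was 0.998, 1 member had an unadjusted p below 0.05, and 563 of all genes did. DESeq2 called 0 genes too, with 123 at an unadjusted p below 0.05. In the 3-group fit the smallest adjusted p of a member for the same difference was 0.783.

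The members' median log2 difference from vehicle was -0.27, against 0.04 over all genes. The treated libraries did not move alike: the median was 0.08 in replicate 1 and -0.67 in replicate 2. In replicate 1, 27 of 76 members were below vehicle, beside 6904 of all 13766 genes. In replicate 2, 59 of 76 were, beside 6789 of all genes. Both treated libraries were below vehicle for 25 members (32.6% of all genes were) and above it for 15 (33.1% of all genes were), and 36 members lay on opposite sides.

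**Figure D4:**
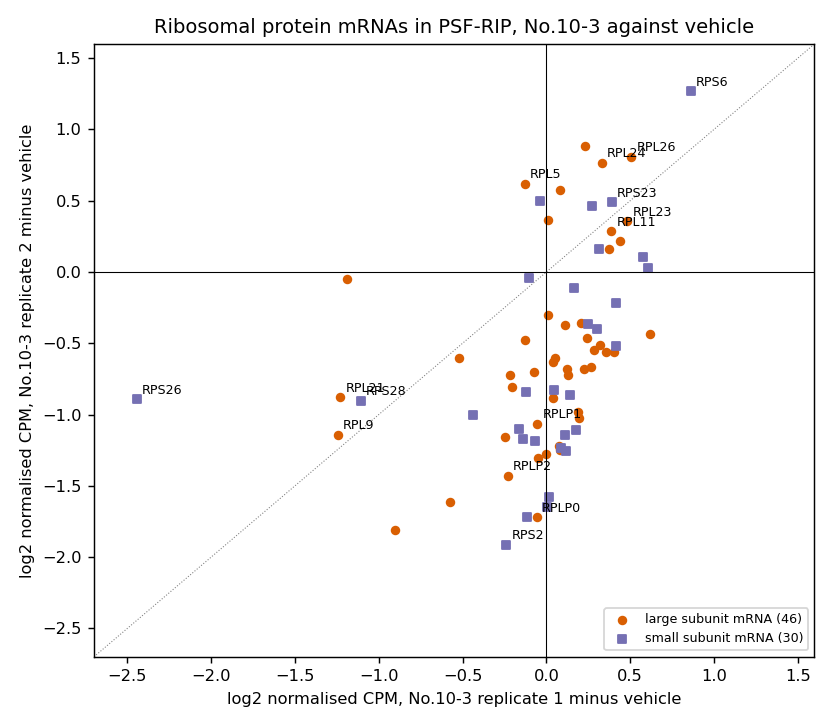
Each point is a ribosomal protein mRNA, with the log2 difference from vehicle PSF-RIP in No.10-3 replicate 1 on the horizontal axis and in replicate 2 on the vertical axis; the dotted line marks equal values. The points centre near 0 (median 0.08) across and near -0.67 down, with RPS6 at the upper right and RPS2 and RPLP0 far down at little change in replicate 1.

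With members ranked on whichever No.10-3 library lay closer to vehicle, RPS6 was the highest. Its levels of 308 and 412 normalised CPM with No.10-3 were both above the 170 with vehicle, by 0.86 and 1.27 on the log2 scale. The difference did not pass the test (log2 1.08, SE 0.70, edgeR adjusted p = 0.998). RPL26, RPS23, RPL23 and RPL24 followed in that order, with fitted log2 differences between 0.42 and 0.67, none called.

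RPS2, a small subunit protein at the mRNA entry, was at 775 and 244 normalised CPM in No.10-3 PSF-RIP and 916 in vehicle PSF-RIP. Replicate 2 was far below the vehicle library while replicate 1 was close to it. RPLP0 had the same layout, with 539 and 171 against 562 with vehicle, and averaged 355 ± 260 with No.10-3 (SD, n = 2). RPL9, RPS28, RPS26 and RPL21 were among the 5 lowest by the same order, with fitted log2 differences between -1.48 and -1.03, and are members with few reads. RPL9 was at 5.18 and 5.63 normalised CPM with No.10-3 and 12.9 with vehicle, so both treated libraries were below vehicle by similar amounts.

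The shift of replicate 2 came with other differences of that library. Its snoRNAs took 0.259% of counts, against 1.69% in replicate 1, 3.04% in vehicle PSF-RIP and 1.09 to 1.83% in the inputs. All 48 snoRNAs inside members were below vehicle in replicate 2, with a median of -1.98, and 44 of 48 were in replicate 1, with a median of -0.66. Over all 208 snoRNAs tested, 206 were below vehicle in replicate 2 (median -2.27) and 167 in replicate 1 (median -0.58). Without replicate 1, 21 members were lower with No.10-3 and RPS6 was higher, where 2.76% of all genes were lower and 3.79% higher; that fit has 1 library of each condition and takes its spread from the inputs. RPS2 (log2 -1.92), RPLP0 (-1.73) and RPS15 (-1.73) were among the lower. Without replicate 2, no member was called and the median was 0.08. Whether the library or the compound accounts for the shift was not tested.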

How the data were processed

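RIP-seq of PSF and input RNA from LTAD cells gave 5 libraries of 1 human series. The authors deposited whole-number read counts per gene with a gene length, which carry no normalization; the deposited length (unit other, in bases) was used for values per kilobase and length classes. Per the submitters' processing notes, the tools were Bowtie, Bowtie2 2.2.6 and TopHat2 2.1.0, and the build was hg19. Not given in the sources used here are the counter, whether it used strand, and how it treated reads matching several places. The 5 FPKM columns were not used. Count columns whose names give the compound but neither PSF nor RIP were taken, by elimination, as the No.10-3 PSF-RIP libraries. Genes without a symbol (1962) have an Entrez ID and were kept, at 0.110 to 0.504% of counts.

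Genes averaging at least 1 CPM over the libraries of a fit were tested with edgeR 4.0.16 (R 4.3.3, glmQLFit and glmQLFTest, TMM factors) and Benjamini-Hochberg adjustment at 0.05. An SE is the log2 change divided by the square root of the F statistic. Per-library log2 values have a prior count of 2. The fit of No.10-3 against vehicle rests on the treated pair for its spread. Alternatives were other factors, plain totals, totals over nuclear protein-coding genes, filters, DESeq2 1.42.0, a length trend removed by lowess, a 3-group fit and each library left out. Scripts were tested on simulated data.

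Members and gene lists were chosen with earlier results of these data known. Members named were those lowest and highest in each comparison (6 at each end over input, 5 at each end with No.10-3 by the smaller of both changes), the 8 highest per length in the inputs, the 10 smallest adjusted p-values and a list of well-studied members (RPLP0, RPLP1, RPLP2, RPL5, RPL11, RPSA, RPS19, RPS6, RPL9, RPL21 and RPS27A). RPS2, RPS15 and the members with few reads were named after their values were seen. Names, snoRNA positions and start windows came from RefSeq tables (GRCh38.p14), which matched 23696 genes by Entrez ID and all 77 members. snoRNAs were placed by position within the gene without strand. Sequences of the proteins were not used here. A few items are not reported here.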

Additional observations from a re-analysis of the deposited data

How the results depend on the processing

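For PSF-RIP over input, the 51 lower members stayed between 46 and 55 with upper-quartile or RLE factors, protein-coding totals, either filter, DESeq2, the 3-group fit and the length trend removed, and the count of higher members stayed at 0. With plain totals over genes, 11613 genes were higher and 49 lower, 34 members were higher and 6 lower, and the members' median was 0.65. The length trend moved the median to -1.24, and in the 3-group fit to -1.37 for No.10-3 and -1.17 for vehicle. Leaving out each library in turn gave 87 to 2360 genes higher, 515 to 2440 lower and 37 to 53 members lower, with 0 members higher. In the 3-group fit of each condition over input, only the No.10-3 libraries were left out in turn, each time leaving 1 treated library. The members' median for No.10-3 was then -2.10 to -1.68. These alternatives were chosen after seeing the data. As a share of nuclear protein-coding counts in place of all counts, the ratio of PSF-RIP over input was 0.313 in place of 1.48. The cause was not tested.

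Signs were followed singly for 25 members: the lowest and highest over input, the smallest adjusted p-values and the well-studied list. Members outside that set also turned under plain totals, RPL37A, RPL23 and RPS2 among them, so the list that follows is not complete. Within the set, signs turned under plain totals for RPS27 (2.28), RPL7 (2.27), RPSA (1.51), RPLP0 (1.24), RPS19 (1.14), RPS27A (0.79), RPS6 (0.68), RPL11 (0.62) and RPLP2 (0.62). Those of RPL7 and RPS27 also turned with protein-coding totals (0.036 and 0.048), with the length trend removed (0.37 and 0.84) and in the 3-group fit (7.99e-04 and 0.0057). Without 1 library, values ran between -0.33 and 1.49 for RPL21, -0.46 and 0.99 for RPL36A, -0.19 and 1.15 for RPL9, -0.24 and 0.20 for RPL7, and -0.26 and 0.28 for RPS27. All 5 have under 25 counts on average in the inputs.

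For No.10-3 over vehicle PSF-RIP, leaving out replicate 1 gave 501 genes higher and 365 lower, 1 member higher and 21 lower, and a median of -0.68. Leaving out replicate 2 gave 20 genes higher and 6 lower, 0 members either way and a median of 0.081. The other alternatives kept the count of members at 0 and the median between -0.31 and -0.26. No paired analysis was possible because the vehicle PSF-RIP group has 1 library and the column names state no pairing of inputs with PSF-RIP libraries. An input column and the column of No.10-3 replicate 2 both end in 2, but the names do not say that these belong together. The limits are 1 vehicle library, inputs not told apart, no control immunoprecipitation among the samples and few reads for 8 members.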
